A study of Mus musculus with 24 samples.

Results

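The matrix metalloproteinases (MMPs) and their tissue inhibitors (TIMPs) were followed through the dental mesenchyme of the mouse first molar. The 10 genes were taken by name from the read-count table: the proteases Mmp2, Mmp3, Mmp9, Mmp11, Mmp13, Mmp14 and Mmp16 and the inhibitors Timp1, Timp2 and Timp3. They are 10 of 56748 genes in the table and 10 of its 27 Mmp and Timp genes, and the other 17 are described at the end. The study asked whether the tooth germ's mesenchyme differs between its lingual and its buccal side in the capacity to form a tooth. All tissue came from mandibular first molar germs of ICR mouse embryos, 36 embryos from 3 pregnant mice. The methods state that only the mesenchyme was isolated, and the epithelial markers found are given below. How many germs went into a library is not given in the sources used here. The 8 groups were the undivided mesenchyme at the cap stage (Cap-W, E13) and the bell stage (Bell-W, E15), the lingual parts Cap-L and Bell-L, the buccal parts Cap-B and Bell-B, and the 2 cap-stage parts after 2 days in culture (Cap-L+2D, Cap-B+2D). No group carried a transgene or a mutation, and each had 3 libraries.

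Each library held from 20581720 to 39266497 gene-assigned read pairs. The 10 dental mesenchyme markers listed for this tissue were above the floor of 3 counts in every library, and their summed level lay between 2244 and 4085 CPM (counts scaled to a common library size, here with TMM factors). The undivided libraries varied more than those of the parts. In the members with a mean of at least 10 normalized CPM, the median SD was 9.92% of the mean in the undivided groups and 2.62% in the parts. Cap-W replicate 1 and Bell-W replicate 3 stood farthest from the other libraries of their groups, and the stage changes of the undivided mesenchyme are also given without both. The methods name triplicate sequencing and, in another sentence, a pair of biological replicates, and do not say whether the 3 libraries of a group came from separate litters, so p-values measure the spread between these libraries, which may be technical. In bulk tissue, fewer cells of a type and less RNA per cell cannot be told apart.

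MMPs are zinc endopeptidases that cut the proteins of the extracellular matrix, and most are secreted as inactive proenzymes. TIMPs bind the active site of the proteases and block them. At the cell surface, the membrane-anchored Mmp14 binds Timp2, and this complex captures and activates proMmp2, so that one inhibitor also serves as an activator. In developing teeth and bones these enzymes are known for remodelling the collagen of the mesenchyme and the basement membrane between epithelium and mesenchyme.

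The 3 members whose promoters held a binding motif of AP-1, the Fos and Jun transcription factor, are shown because they include Mmp13 and Mmp3, the members that rose most in culture. Each sequence is the 250 bases before the start of the gene's canonical transcript in GRCm39, on the + strand and written 5′ to 3′, at chr9:7272264-7272513 for Mmp13, chr9:7445572-7445821 for Mmp3 and chr2:164789889-164790138 for Mmp9. Capitals mark the AP-1 motif TGANTCA and the RUNX motif TGTGGT, searched on both strands, which did not overlap in these windows.
Mmp13: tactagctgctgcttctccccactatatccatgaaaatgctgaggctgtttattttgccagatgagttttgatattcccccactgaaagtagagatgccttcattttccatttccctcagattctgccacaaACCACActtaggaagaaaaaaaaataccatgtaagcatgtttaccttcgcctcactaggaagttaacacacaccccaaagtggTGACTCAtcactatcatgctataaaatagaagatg
Mmp3: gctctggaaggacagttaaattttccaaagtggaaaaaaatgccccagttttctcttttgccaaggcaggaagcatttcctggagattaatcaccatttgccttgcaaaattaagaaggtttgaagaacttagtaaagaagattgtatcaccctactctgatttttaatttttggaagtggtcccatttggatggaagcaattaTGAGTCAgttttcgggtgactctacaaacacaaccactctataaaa
Mmp9: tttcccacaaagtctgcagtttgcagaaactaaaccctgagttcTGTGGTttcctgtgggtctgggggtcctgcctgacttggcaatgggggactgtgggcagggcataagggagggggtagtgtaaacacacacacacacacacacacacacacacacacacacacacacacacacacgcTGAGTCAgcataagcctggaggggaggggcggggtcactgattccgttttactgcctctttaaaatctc
The AP-1 motif began 35 bases before the start in Mmp13, 46 in Mmp3 and 69 in Mmp9, and the RUNX motif 118 bases before the start in Mmp13 and 206 in Mmp9. Of 21770 protein-coding promoters of this length, 6.17% held the AP-1 motif and 13.0% the RUNX motif, against 3 and 2 of the 10 members. Among the promoters of all 27 family genes, 11 held the AP-1 motif and 6 the RUNX motif. In the windows of Mmp16 and Timp2, 240 and 187 of the 250 bases were exon bases. The window of Mmp19, among the 11 with the AP-1 motif, lay wholly in exon bases. Of the members with an AP-1 match, Mmp13 and Mmp3 rose most in culture. Mmp9 changed little in the lingual part (log2 0.14) and was called higher in the buccal part. Timp1 rose 4.75-fold in the lingual part without a match to the pattern searched. The part of the motif in these changes was not tested. A match describes letters in the window and not a site in use.

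Per kilobase of exon (FPKM), Mmp2, Mmp14 and Timp2 were the most abundant of the 10 members in each of the 8 groups. Mmp2 had between 83.2 FPKM in Cap-W and 318 FPKM in Cap-B+2D. Timp2 had between 48.8 FPKM in Cap-W and 226 FPKM in Cap-L+2D, and Mmp14 between 48.1 FPKM in Cap-W and 204 FPKM in Cap-L+2D. Mmp13 and Mmp3 were at the other end, with 0.0672 and 0.0241 FPKM in Cap-W. The 3 abundant genes also followed each other most closely over the 8 group means, with Pearson's r of 0.988 for Mmp14 and Timp2, 0.969 for Mmp2 and Mmp14, and 0.960 for Mmp2 and Timp2, as a description over 8 points. Part of the exon bases of Mmp2 (25.5%), Timp3 (21.3%) and Mmp11 (5.58%) is shared with another gene (Gm45472, Syn3 and Chchd10, each on the opposite strand), and read pairs falling on both were left out of the counts.

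**Figure D1:**
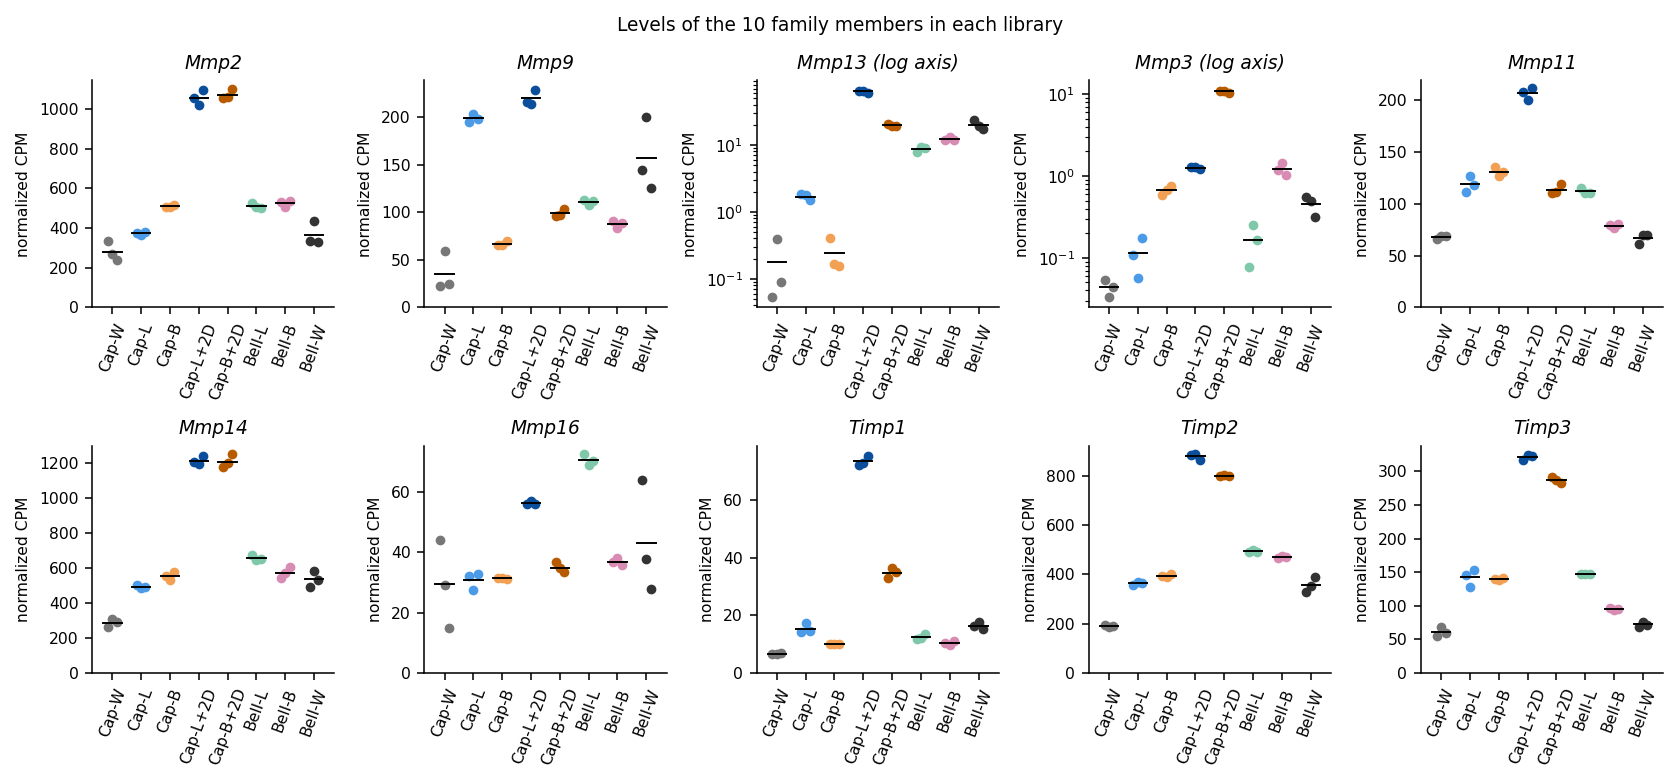
Normalized CPM of the 10 members (y axis, logarithmic for Mmp13 and Mmp3) in the 8 groups (x axis), with 1 point per library and a line at the group mean. The cultured groups Cap-L+2D and Cap-B+2D are highest for Mmp2, Mmp14, Timp1, Timp2 and Timp3, whereas Mmp9 is lower in the buccal than in the lingual libraries at each time.

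A gene was called when its edgeR adjusted p was below 0.05 and its log2 fold change was beyond 0.5 in either direction, the fold limit used throughout. In the undivided mesenchyme, 5 of the 9 members tested were higher at the bell than at the cap stage and none was lower, while 14.5% of all genes tested were called, 10.3% higher and 4.21% lower. Without Cap-W replicate 1 and Bell-W replicate 3, 8 members were called, where 20.9% of all genes tested were called. Between the cap-stage parts, 4 of 10 members were called (17.5% of all genes), of which 1 was higher in the buccal part (10.4% of all genes) and 3 were lower (7.1%). Between the bell-stage parts the count was also 4 of 10 (12.9% of all genes), with 1 higher (6%) and 3 lower (6.88%) in the buccal part. After culture, 6 of 10 were called (25.1% of all genes), 1 higher (12.5%) and 5 lower (12.5%) in the buccal part. From cap to bell, 3 of 10 members were called on the lingual side (20% of all genes), 2 of them higher (14.2%) and 1 lower (5.78%), and 4 of 10 on the buccal side (18.7%), 2 higher (12%) and 2 lower (6.73%). Some calls could go only 1 way, as the gene passed the filter on low counts only where it was high. These were Mmp13 in the undivided mesenchyme, Mmp13 and Mmp3 between the cap-stage parts, and Mmp3 between the bell-stage parts. On the buccal side from cap to bell, Mmp13 did not pass through the cap-stage libraries. Such calls cannot be weighed against the shares of all genes.

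Culture moved more of the family. In the lingual part, 9 of 10 members rose over the cap stage and none fell, where 35.4% of all genes were called, 19.6% higher and 15.9% lower. These members include Mmp3, which passed the filter on low counts there only through the cultured libraries. In the buccal part, 8 of 10 rose and none fell, where 34.5% of all genes were called, 17.9% higher and 16.6% lower. These include Mmp13, which did not pass that filter through the cap-stage libraries. The median log2 fold change of the members was 1.28 for the lingual and 1.02 for the buccal part, beside -0.03 and -0.02 over all genes tested. Over the bell-stage part, which shares the cultured libraries with the comparison above, 9 of 10 members were higher on the lingual side (31.2% of all genes called, 14.4% higher, 16.8% lower) and 7 of 10 on the buccal side (31.8% called, 15.5% higher, 16.3% lower). On the lingual side Mmp3 again passed only through the cultured libraries. The direction of the calls limited in this way was set by the filter.

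The libraries of a group lay close enough together that many genes separated fully. Libraries of the 2 groups did not overlap in 6 of the 9 members tested between the undivided stages (36.3% of all genes), in 7 of 10 between the cap-stage parts (52.2%), in 9 between the bell-stage parts (45.5%) and in 8 between the cultured parts (58.8%). From cap to bell they did not overlap in 7 members on the lingual side (56.1%) and in 7 on the buccal side (55.2%). Cultured and cap-stage libraries did not overlap in 10 of 10 members on the lingual side (66.9%) and on the buccal side (68.6%), and cultured and bell-stage libraries in 10 (67.2%) and 9 members (66.6%). The limit of the filter given above for Mmp3 and Mmp13 holds for these counts as well.

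Markers of other cell types also shifted with culture. The summed level of 7 red blood cell markers was between 1958 and 7679 CPM in the uncultured libraries and between 34.2 and 40.5 CPM in the cultured ones. The 10 macrophage markers rose from 96.9 to 102 CPM in Cap-L to 344 to 356 CPM in Cap-L+2D, and the 8 osteoclast markers from 99.0 to 104 CPM to 298 to 306 CPM. Epithelial markers (8 genes) were at 22.1 to 23.3 CPM in Cap-B+2D and at 382 to 415 CPM in Cap-L+2D. All 8 were over the floor in every library of every group, so transcripts of these markers remained, unevenly between the groups. How complete the removal of the epithelium was in each group was not tested. Endothelial markers (8 genes) went from 533 to 538 CPM in Cap-L to 443 to 450.5 CPM in Cap-L+2D, and from 467 to 483 CPM in Cap-B to 187 to 190.2 CPM in Cap-B+2D. Neutrophil markers (7 genes) stayed between 0.867 and 10.1 CPM in sum. On the lingual side 6 of 7 tested rose (mean sum 2.26 to 9.54 CPM, 19.6% of all genes higher). On the buccal side 4 of 6 rose (1.39 to 3.58 CPM, 17.9% of all genes higher). In the buccal cultured part 6 of 6 were lower than in the lingual one (12.5% of all genes). These counts are limited by low reads, with 4 markers over the floor in all Cap-L libraries and 1 in all Cap-B libraries. Elane was at or under the floor in all libraries of the uncultured groups. Cartilage markers (7 genes) summed to 264 to 281.5 CPM in Cap-L and 247 to 275 CPM in Cap-L+2D, and Matn1 was at or under the floor in both. The part of these shifts in the levels of the family was not tested.

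Mmp2 (chr8:93553919-93580048, + strand) encodes a gelatinase that cuts denatured collagen and the type IV collagen of basement membranes. Its level was 376, 366 and 379 CPM in the Cap-L libraries, 505, 506 and 514 CPM in Cap-B, and 525, 505 and 502 CPM in Bell-L. After culture it reached 1053, 1021 and 1096 CPM in Cap-L+2D and 1053, 1058 and 1101 CPM in Cap-B+2D. The cultured groups overlapped each other and lay above all others. The rise over the cap-stage part was 2.81-fold on the lingual side (log2 fold change 1.49 ± 0.04, SE, edgeR adjusted p = 5.98e-20) and 2.05-fold on the buccal side (1.04 ± 0.03, edgeR adjusted p = 8.54e-24). At the cap stage Mmp2 was 1.38-fold higher in the buccal part, a log2 difference of 0.47 that did not reach the fold limit (edgeR adjusted p = 4.9e-08). In the cultured parts the log2 difference between the sides was 0.01, with a 95% interval from -0.06 to 0.09. In the undivided mesenchyme the change from cap to bell (log2 fold change 0.37 ± 0.17) was not called, although it was 0.62 and called without Cap-W replicate 1 and Bell-W replicate 3.

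Mmp9 (chr2:164782700-164797770, + strand) encodes the other gelatinase, known from osteoclasts and from the invasion of cartilage by vessels. It showed a side difference in each condition. The libraries held 195, 204 and 198 CPM in Cap-L against 65.7, 65.9 and 69.4 CPM in Cap-B, and 217, 214 and 229 CPM in Cap-L+2D against 95.7, 97.6 and 104 CPM in Cap-B+2D. The difference was smaller at the bell stage, with 113, 107.3 and 112 CPM in Bell-L and 91.4, 83.3 and 88.4 CPM in Bell-B. No lingual library overlapped a buccal one at the same time. The buccal level was 2.92-fold lower at the cap stage and 2.23-fold lower after culture, while the bell-stage difference of -0.34 (log2) did not reach the fold limit.

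The stage change of Mmp9 differed between the sides. In the lingual part it fell by 0.83 on the log2 scale from cap to bell (SE 0.04, edgeR adjusted p = 2.14e-14), and in the buccal part the value was 0.38, under the fold limit. The difference between these changes was 1.201 ± 0.06 (edgeR adjusted p = 2.19e-16). In the undivided mesenchyme Mmp9 rose from 22.8, 59.5 and 24.7 CPM at the cap stage to 145, 200 and 126 CPM at the bell stage, which was 4.37-fold (log2 2.13 ± 0.38, edgeR adjusted p = 0.00837), and the log2 fold change lay between 1.89 and 2.71 with each library left out in turn and was 2.05 without Cap-W replicate 1 and Bell-W replicate 3. Against the undivided mesenchyme, both cap-stage parts were higher, and both bell-stage parts were lower. Of the osteoclast markers, 6 were tested at the cap stage, 8 at the bell stage and 7 after culture, and 0 were called between the sides by edgeR. Their sum was 99.0 to 104 CPM in Cap-L and 115 to 120 CPM in Cap-B, with 7 of 8 markers over the floor in all libraries of each group, and 298 to 306 CPM in Cap-L+2D against 273 to 285 CPM in Cap-B+2D. Of the 8 epithelial markers, 6, 4 and 8 were lower in the buccal part at the cap stage, at the bell stage and after culture (7.1%, 6.88% and 12.5% of all genes). Their sum was 397 to 443 CPM in Cap-L and 315 to 329 CPM in Cap-B. Its mean went from 322 CPM in Cap-B to 22.6 CPM in Cap-B+2D, where Mmp9 was higher. From Cap-L to Bell-L it went from 415 to 672 CPM, where Mmp9 was lower. At the cap stage, 7 of 7 osteoblast and 5 of 5 cartilage markers tested were lower in the buccal part too. The part of these cell types in the level of Mmp9 was not tested. Culture left Mmp9 near its cap-stage level on the lingual side (log2 0.14) and raised it 1.44-fold on the buccal side, a call that held in 5 of 6 fits with a library left out.

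Mmp13 (chr9:7272514-7283331, + strand) encodes the main interstitial collagenase of rodents, which cuts fibrillar collagen in bone and hypertrophic cartilage. Its group means ran from 0.180 CPM in Cap-W to 63.4 CPM in Cap-L+2D. At the cap stage its counts were low, with 51, 63 and 42 reads in Cap-L and 9, 4 and 4 in Cap-B. Between these parts it passed the filter on low counts only through Cap-L, which set the direction of the call there. After culture it held 64.6, 65.2 and 60.4 CPM in Cap-L+2D and 20.7, 19.4 and 19.4 CPM in Cap-B+2D. At the bell stage it held 7.82, 9.39 and 9.02 CPM in Bell-L and 11.7, 13.2 and 11.7 CPM in Bell-B. The side with more Mmp13 was thus lingual at the cap stage (log2 fold change, buccal over lingual, -2.78 ± 0.31) and after culture (-1.68 ± 0.05), whereas at the bell stage the buccal libraries were all above the lingual ones (0.47 ± 0.08), under the fold limit. The side difference changed between the stages by 3.26 ± 0.31 on the log2 scale (edgeR adjusted p = 8.13e-10).

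Over the cap-stage part, Mmp13 rose 37.0-fold in the lingual and 80.0-fold in the buccal part during culture, and 5.20-fold and 50.1-fold from cap to bell, both sets of values sharing the cap-stage libraries. The cultured lingual part exceeded the bell-stage lingual part 7.11-fold (log2 2.83 ± 0.07), and the cultured buccal part its bell-stage counterpart 1.60-fold (0.67 ± 0.07). The 8 osteoblast markers summed to 980 to 989 CPM in Cap-L, 448 to 466 CPM in Cap-B, 2438 to 2464 CPM in Cap-L+2D and 603 to 614 CPM in Cap-B+2D. At the bell stage they summed to 730 to 754 CPM in Bell-L and 560 to 564 CPM in Bell-B. Of the 7 tested there, 2 were higher and 2 lower in the buccal part (6% and 6.88% of all genes). In the buccal part, 7 of 7 were lower at the cap stage (7.1% of all genes) and 8 of 8 after culture (12.5%). Bglap was at or under the floor in all Cap-B libraries. The part of osteoblasts in the level of Mmp13 was not tested.

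Mmp3 (chr9:7445822-7455975, + strand) encodes stromelysin 1, which cuts proteoglycans and fibronectin and activates other proMMPs. It was the only member called higher in the buccal part under each condition. At the cap and bell stages it passed the filter on low counts only through the buccal libraries. The direction of the calls there was thus set by the filter, whereas in culture the libraries of both sides passed it. Counts were 3, 2 and 5 in Cap-L, 13, 16 and 19 in Cap-B, 2, 7 and 5 in Bell-L, and 36, 41 and 31 in Bell-B. In culture the level was 1.29, 1.28 and 1.21 CPM in Cap-L+2D and 11.1, 11.1 and 10.5 CPM in Cap-B+2D. The buccal level was higher by 6.05-fold in the cap-stage germ (edgeR adjusted p = 6.14e-05), 7.13-fold in the bell-stage germ (edgeR adjusted p = 8.72e-09) and 8.61-fold after culture (edgeR adjusted p = 1.69e-17). No change of this side difference was detectable at these counts, with a log2 difference of 0.23 between the stages (95% interval -1.23 to 1.70) and of 0.50 with culture (-0.59 to 1.60).

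During culture Mmp3 rose 11.1-fold on the lingual and 15.7-fold on the buccal side. With 1 count in each Cap-W library and 15, 12 and 10 counts in Bell-W, the gene had too few reads to be tested between the undivided stages, and the bell-stage level was at least 3.50-fold higher than the floor of 3 counts per library. With all 24 libraries in 1 fit it could be tested there, and the value was 3.31 on the log2 scale (edgeR adjusted p = 5.76e-06). Skeletal muscle markers had nearly the order of Mmp3 over the 6 groups of parts, with only Bell-B and Cap-L+2D, which overlapped in Mmp3, exchanged. Their sum over 8 genes was 20.8 to 21.9 CPM in Cap-L, 223 to 244 CPM in Cap-B, 118 to 127 CPM in Bell-L, 928 to 960 CPM in Bell-B, 309 to 331 CPM in Cap-L+2D and 3966 to 4136 CPM in Cap-B+2D. Ckm was at or under the floor in Cap-L, Cap-B and Cap-L+2D. In Bell-W, where these markers summed to 7.48 to 18.5 CPM, Mmp3 had 0.555, 0.496 and 0.319 CPM, more than in Bell-L with its higher marker sum. The part of muscle in the level of Mmp3 was not tested.

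Mmp11 (chr10:75759056-75772330, - strand), or stromelysin 3, is a protease of stromal fibroblasts that is activated inside the cell by furin. Like Mmp16, it rose in the lingual cultured part and not in the buccal one. The lingual libraries went from 111, 127 and 118 CPM to 208, 200 and 212 CPM (1.73-fold, edgeR adjusted p = 9.18e-14). The buccal libraries went from 136, 126 and 131 CPM to 111, 111 and 119 CPM (log2 -0.24, under the fold limit). The effects of culture on the sides differed by 1.04 on the log2 scale, with the lower value in the buccal part (edgeR adjusted p = 1.06e-13). From cap to bell Mmp11 fell by 0.74 on the log2 scale in the buccal part, to 79.3, 77.1 and 80.4 CPM, while in the lingual part the change of -0.06 had an interval from -0.16 to 0.03. The bell-stage side difference of -0.51 was called in 4 of 6 fits with a library left out.

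**Figure D2:**
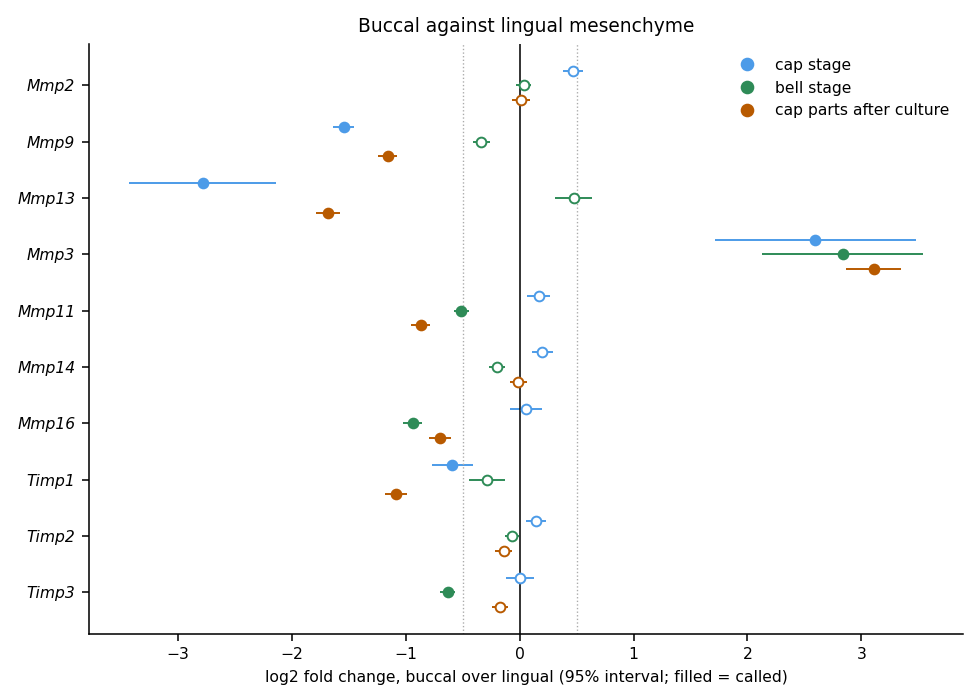
Log2 fold change of each member, buccal over lingual (x axis), at the cap stage, at the bell stage and in the cultured cap-stage parts, with 95% intervals and filled points for called genes. Dotted lines mark the limit of 0.5, and Mmp3 lies on the buccal side and Mmp9 on the lingual side in all 3 conditions. At the cap and bell stages Mmp3 passed the filter on low counts only through the buccal libraries.

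The membrane-anchored proteases Mmp14 and Mmp16 behaved differently from each other. Mmp14 (chr14:54669069-54682821, + strand), the activator of proMmp2, held 501, 488 and 489 CPM in Cap-L and 555, 532 and 578 CPM in Cap-B, and reached 1207, 1197 and 1243 CPM in Cap-L+2D and 1179, 1199 and 1251 CPM in Cap-B+2D. The rise was 2.45-fold on the lingual and 2.13-fold on the buccal side. As with Mmp2, the cultured sides overlapped, with a log2 difference of -0.01 and an interval from -0.09 to 0.06. In the undivided mesenchyme Mmp14 went from 261, 308 and 292 CPM to 494, 581 and 534 CPM (1.86-fold, edgeR adjusted p = 0.00263), with a log2 fold change of 0.89, or 0.87 without Cap-W replicate 1 and Bell-W replicate 3.

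Mmp16 (chr4:17852893-18119145, + strand) also activates proMmp2 and was the member with its highest group mean at the bell stage. It held 72.5, 69.1 and 70.3 CPM in Bell-L, above the 56.0, 57.1 and 56.1 CPM of Cap-L+2D and the 36.7, 38.1 and 35.7 CPM of Bell-B. The cap-stage parts overlapped, with 27.5 to 32.7 CPM in Cap-L and 31.1 to 31.6 CPM in Cap-B. Mmp16 therefore rose 2.33-fold from cap to bell in the lingual part (edgeR adjusted p = 2.67e-15), against 1.17-fold in the buccal part, and the difference of these changes was -1.004 ± 0.08 on the log2 scale (edgeR adjusted p = 1.89e-11). Culture raised it on the lingual side (log2 0.87) and not past the fold limit on the buccal side (0.12), and this difference was called as well (edgeR adjusted p = 5.64e-09). With all 24 libraries in 1 fit, the differences for stage and culture were -0.97 and -0.72 and no longer called (edgeR adjusted p = 0.0917 and 0.197). The undivided libraries spread from 14.9 to 44.1 CPM at the cap stage and from 27.8 to 64.1 CPM at the bell stage. Mmp16 was not called between them with all 6 libraries (log2 0.56 ± 0.43), and was called at 1.23 without Cap-W replicate 1 and Bell-W replicate 3.

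Among the inhibitors, Timp1 (chrX:20736405-20740974, + strand), a secreted inhibitor known for its induction by growth factors and cytokines, moved most. It held 14.1, 17.3 and 14.7 CPM in Cap-L and 9.87, 10.0 and 10.2 CPM in Cap-B, and 72.3, 72.9 and 75.6 CPM in Cap-L+2D and 33.0, 36.4 and 35.2 CPM in Cap-B+2D. The lingual libraries were above the buccal ones before and after culture. The rise was 4.75-fold in the lingual part (edgeR adjusted p = 4.58e-20) and 3.38-fold in the buccal part (edgeR adjusted p = 1.48e-21), and differed between the sides by -0.50 ± 0.10 on the log2 scale. Within the parts Timp1 was not called from cap to bell. The lingual part was lower at the bell stage, under the fold limit (log2 -0.28, edgeR adjusted p = 0.00379), and the buccal value was 0.04. In the undivided mesenchyme Timp1 rose 2.43-fold, from 6.69, 6.42 and 7.00 CPM to 16.1, 17.7 and 15.2 CPM (edgeR adjusted p = 0.00146). The log2 fold change was 1.28, and 1.37 without Cap-W replicate 1 and Bell-W replicate 3.

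Timp2 (chr11:118191895-118246566, - strand), the inhibitor that bridges Mmp14 and proMmp2, held 358, 368 and 367 CPM in Cap-L and 393, 389 and 402 CPM in Cap-B. Culture brought it to 887, 888 and 864 CPM and to 799, 806 and 800 CPM, a rise of 2.40-fold and 1.98-fold. The rise from cap to bell was 1.87-fold in the undivided mesenchyme (edgeR adjusted p = 0.00184, log2 0.90, or 0.89 without Cap-W replicate 1 and Bell-W replicate 3) and did not reach the fold limit in the parts, with log2 values of 0.46 for the lingual and 0.25 for the buccal part. Timp3 (chr10:86136236-86185370, + strand), which stays bound to the matrix and also blocks ADAM proteases, held 146, 127 and 153 CPM in Cap-L and 140, 138 and 142 CPM in Cap-B, and rose to 318, 325 and 323 CPM and to 292, 287 and 283 CPM. At the bell stage it was lower in the buccal part, with 96.5, 93.3 and 95.2 CPM against 148, 147 and 147 CPM in the lingual part (1.55-fold, edgeR adjusted p = 5e-20). The buccal part was 1.48-fold lower than at the cap stage, and in the lingual part no change was detectable (log2 0.07, interval -0.04 to 0.17).

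**Figure D3:**
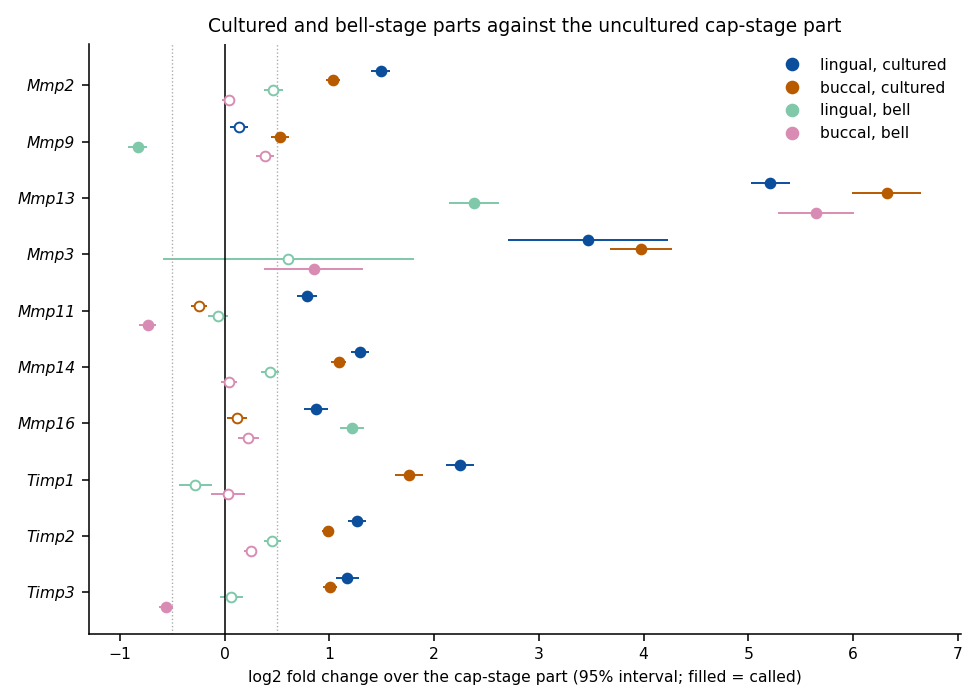
Log2 fold change over the uncultured cap-stage part of the same side (x axis) for each member after culture and at the bell stage, with 95% intervals and filled points for called genes. Mmp2, Mmp14 and the 3 inhibitors lie between 0.99 and 2.25 after culture, and Mmp13 and Mmp3 lie further to the right.

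The sides changed differently in most members. The side difference itself changed from cap to bell in 9 of 10 members (32.5% of all genes), 3 towards the buccal part (14.5%) and 6 towards the lingual part (18%). With culture it changed in 9 of 10 (35.5% of all genes), 2 towards the buccal part (16%) and 7 towards the lingual part (19.5%). Mmp3 was the member without a detectable change in both. Each count was 5 with all 24 libraries in 1 fit, where Mmp2, Mmp16, Timp1 and Timp2 were not called for the stages and Mmp9, Mmp14, Mmp16 and Timp3 not for culture. These tests had no limit on the fold, and 0.22 was the smallest change between the stages, for Timp2, with the lower value in the bell-stage buccal part. Timp1 kept its call for the stages in 4 of 12 fits with a library left out, Timp3 its call for culture in 2 of 12, and Mmp13 its call for culture in 10 of 12.

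The ratio of inhibitor to protease transcripts was higher in every cultured library than in every cap-stage library of the same side. Summed over all Mmp genes of the table, 309.8 ± 1.82 FPKM (SD, n = 3) were measured in Cap-L and 703 ± 18.4 FPKM in Cap-L+2D, and 328 ± 6.70 and 624 ± 16.8 FPKM in Cap-B and Cap-B+2D. The Timp genes summed to 128 ± 2.23 and 348 ± 1.75 FPKM on the lingual side and to 129.8 ± 2.09 and 280.4 ± 2.63 FPKM on the buccal side. The ratio of the Timp to the Mmp sum was 0.408 to 0.418 in the Cap-L libraries and 0.479 to 0.510 in Cap-L+2D. On the buccal side it was 0.393 to 0.399 in Cap-B and 0.435 to 0.459 in Cap-B+2D, so that on both sides the ranges before and after culture did not overlap. The bell-stage parts were above the cap-stage parts, at 0.426 to 0.450 in Bell-L and 0.425 to 0.444 in Bell-B, where they overlapped Cap-B+2D. These sums were not tested. Mmp2 made up 35.8% of the Mmp sum in Cap-L and 50.9% in Cap-B+2D, and Mmp9 18.1% in Cap-L and 4.48% in Cap-B+2D. Timp2 was the larger share of the inhibitors in every group, from 64.8% in Cap-L+2D, where Timp1 reached 23.8%, to 83.8% in Bell-B. These are ratios of transcripts and not of protein or activity.

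**Figure D4:**
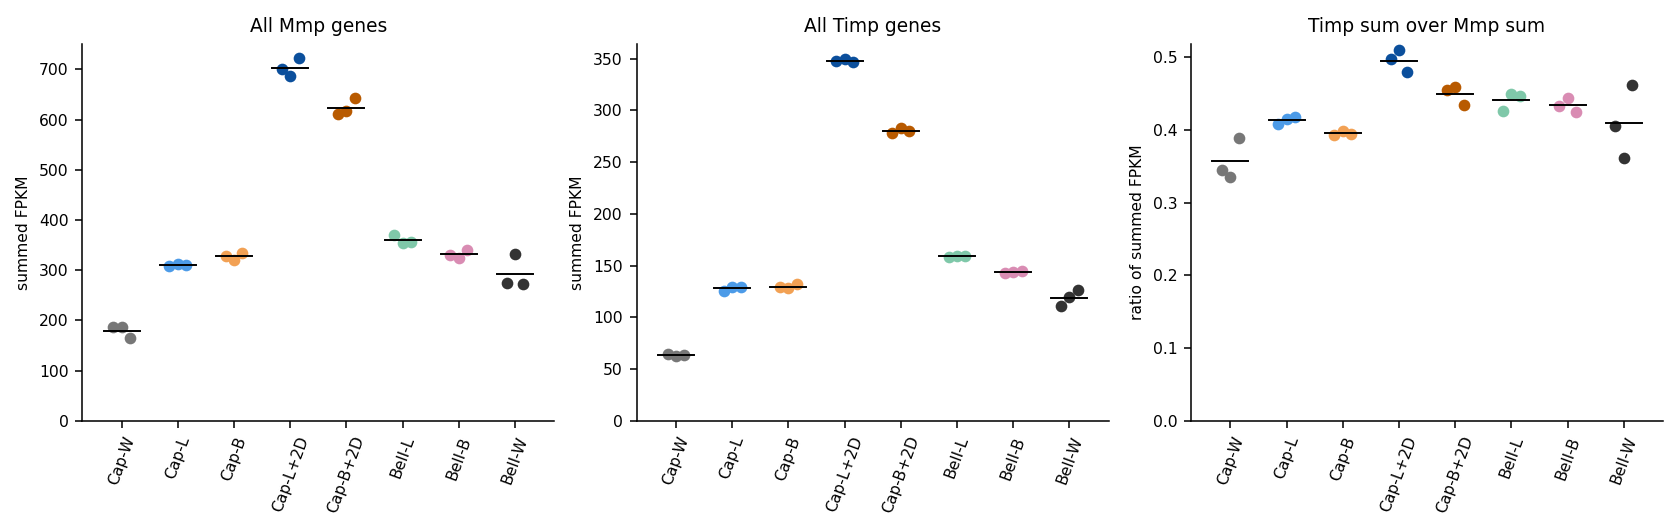
Summed FPKM of all Mmp genes (left), of all Timp genes (middle) and the ratio of the Timp to the Mmp sum (right) in the 8 groups, with 1 point per library and a line at the group mean; all axes start at 0. Both sums are highest in the cultured groups, and the ratio is highest in Cap-L+2D, at 0.479 to 0.510.

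The undivided mesenchyme lay outside the range of its parts in most members. At the cap stage, 8 of 10 members were lower in every Cap-W library than in every library of both parts (17.3% of all genes tested, and 10.9% were higher than both parts), with Timp2 at 190 ± 5.45 CPM against 364 ± 5.33 in Cap-L and 395 ± 6.68 in Cap-B (SD, n = 3). The 8 include Mmp3, whose 1 count in each Cap-W library and 3, 2 and 5 counts in Cap-L lay at or near the floor of 3 counts. At the bell stage, 4 members were lower than in both parts (10.5% of all genes) and 3, Mmp9, Mmp13 and Timp1, were higher than in both (8.05%), while Bell-W lay between Bell-L and Bell-B in Mmp3 and overlapped a part in Mmp14 and Mmp16. Without Cap-W replicate 1 and Bell-W replicate 3 the counts of members were again 8, 4 and 3, where 22.8%, 20.7% and 15.5% of all genes lay so. These undivided and divided libraries were not tested against each other. The step of dividing the germ and any difference between the preparations cannot be told apart. Stage changes in the undivided mesenchyme and in the parts are therefore given side by side, and the difference between them was not tested.

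The other 17 family genes were mostly low, and between 6 and 9 of them passed the filter on low counts in a comparison. Mmp12, the macrophage metalloelastase, had 3, 5 and 2 counts in Cap-L and 0, 1 and 0 in Cap-B. After culture it had 367, 445 and 569 counts in Cap-L+2D (15.7 ± 0.377 CPM, SD, n = 3) and 283, 225 and 222 in Cap-B+2D (7.66 ± 0.493 CPM). On the buccal side it was at least 60.6-fold higher than the floor of 3 counts per library in Cap-B, and on the lingual side at least 146-fold higher than that floor in Bell-L. Macrophage markers rose with culture too, 10 of 10 on the lingual side (19.6% of all genes) and 8 of 10 on the buccal side (17.9%). In the buccal cultured part 7 of 10 were lower than in the lingual one (12.5% of all genes). All 10 were over the floor in every group, and their sum was 344 to 356 CPM in Cap-L+2D and 370 to 372 CPM in Bell-L, where Mmp12 had 1, 2 and 2 counts. The part of macrophages in the level of Mmp12 was not tested. Mmp19 rose from 1.10 ± 0.233 CPM in Cap-L to 10.3 ± 0.0545 CPM in Cap-L+2D and from 1.52 ± 0.152 CPM in Cap-B to 7.35 ± 0.444 CPM in Cap-B+2D, with part of its exon bases (28.3%) shared with genes of the opposite strand. Mmp8, the neutrophil collagenase, rose from 5, 4 and 2 counts to 43, 57 and 64 in the lingual part and from 3, 3 and 0 to 33, 21 and 31 in the buccal part, beside the rise of neutrophil markers given above, whose part in it was not tested. Mmp25 fell with culture on both sides, by 0.85 and 1.37 on the log2 scale. Mmp17 and Mmp23 were among the genes with higher buccal levels, Mmp17 at the bell stage (log2 1.21 ± 0.08) and Mmp23 at the cap stage (1.14 ± 0.12).

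Of the 27 family genes, 10 lie in 1 cluster on chromosome 9, from 7272514 to 7699586 in GRCm39, over 427 kb. In chromosomal order they are Mmp13, Mmp12, Mmp1b, Mmp3, Mmp1a, Mmp10, Mmp8, Mmp27, Mmp20 and Mmp7. The 4 genes of the cluster that passed the filter, Mmp13, Mmp12, Mmp3 and Mmp8, all rose in both cultured parts (19.6% and 17.9% of all genes tested were higher there). On the lingual side Mmp12, Mmp3 and Mmp8 passed the filter only through the cultured libraries, and on the buccal side Mmp12 did. Their rise was thus largely set by the filter, and the count cannot be weighed against those shares. Mmp27 was under the filter, with 0 counts in the Cap-L and Cap-B libraries, 15, 13 and 14 counts in Cap-L+2D and 29, 8 and 11 counts in Cap-B+2D. Mmp1a, Mmp1b and Mmp7 had no more than 1 count in any library. Between the cultured parts, Mmp13, Mmp12 and Mmp8 were higher on the lingual side and Mmp3 on the buccal side.

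**Figure D5:**
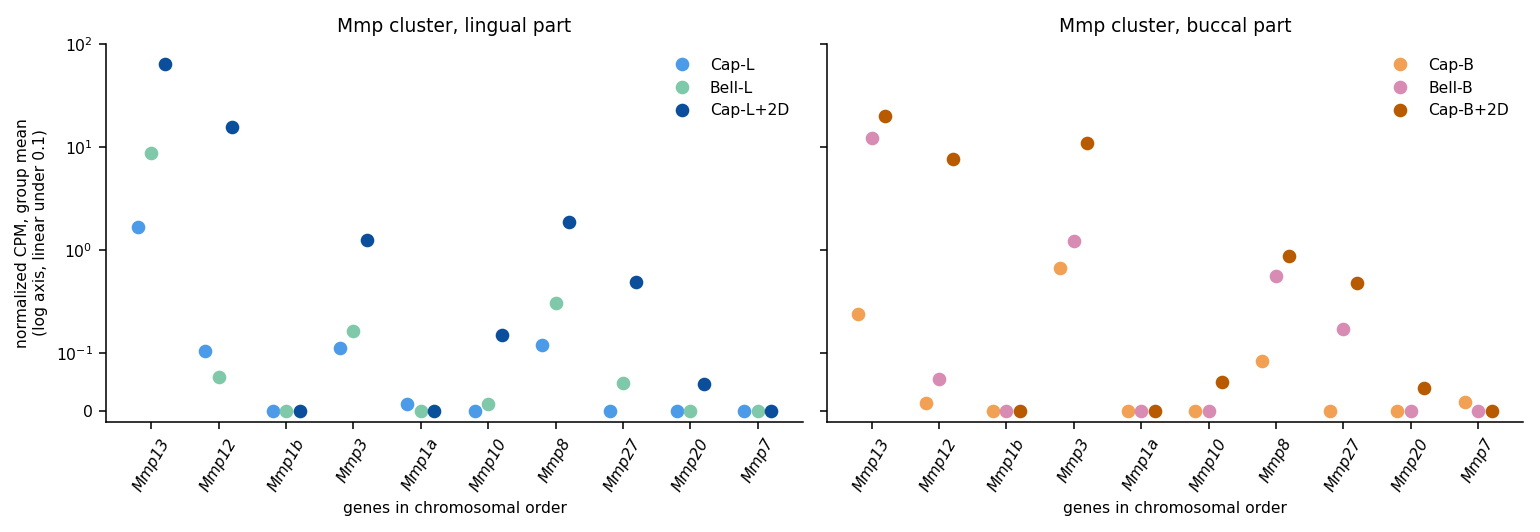
Mean normalized CPM (y axis, logarithmic above 0.1 and linear below) of the 10 genes of the chromosome 9 cluster in chromosomal order (x axis), for the lingual part (left) and the buccal part (right) at the cap stage, at the bell stage and after culture. Points are means of 3 libraries without error bars, and the cultured part is highest for Mmp13, Mmp12, Mmp3 and Mmp8 on both sides.

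Partners of the family moved with culture as well. Of 24 genes that activate, bind or inhibit MMPs, 24 were tested on the lingual side, where 15 rose and 1 fell, and 23 on the buccal side, where 11 rose and 2 fell, beside 19.6% of all genes higher and 15.9% lower on the lingual side and 17.9% and 16.6% on the buccal side. Plaur, the urokinase receptor, rose from 3.26 to 16.7 CPM on the lingual and from 1.57 to 7.15 CPM on the buccal side. Among 22 matrix substrates, 20 were tested on the lingual side, where 16 rose and 0 fell, and 21 on the buccal side, where 14 rose and 2 fell. Spp1, or osteopontin, which Mmp3 can cut, rose from 2.62 to 183 CPM and from 0.732 to 105 CPM. Of 13 other matrix proteases, 12 were tested on each side, and 9 rose on the lingual side and 6 on the buccal side, where 1 fell. Ctss, a cathepsin of macrophages, went from 6.37 to 79.0 CPM and from 5.40 to 44.1 CPM. The median log2 fold changes of the 3 lists were 0.76, 1.10 and 1.31 on the lingual side and 0.45, 0.65 and 0.53 on the buccal side, beside -0.03 and -0.02 over all genes tested.

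Between the cap-stage parts, 6 of the 24 partners tested were higher and 5 lower in the buccal part, beside 10.4% and 7.1% of all genes. Spock1, a proteoglycan, was lower there (24.4 against 74.7 CPM) and Thbs1, a thrombospondin that binds MMPs, higher (376 against 145 CPM). Of the 19 substrates tested, 7 were higher and 6 lower, with Eln, which encodes elastin, at 942 against 242 CPM and Spp1 at 0.732 against 2.62 CPM. From cap to bell in the undivided mesenchyme, 12 of 23 partners tested rose and 2 fell, 13 of 19 substrates rose and 2 fell, and 7 of 12 other proteases rose and 0 fell, beside 10.3% of all genes higher and 4.21% lower. Fap, a membrane protease of activated fibroblasts, went from 8.55 to 55.4 CPM and Ctsk, the cathepsin of osteoclasts, from 20.6 to 116 CPM.

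By the highest Pearson's r of the mean log2 CPM over the 8 groups, among 14360 genes, Mmp9 was most like Fgfr3 (0.975) and Fgfr2 (0.970), receptors of fibroblast growth factors. Mmp3 was most like Kif1a (0.981), Rtn2 (0.977) and Tpm2 (0.976), among 14361 genes. Timp1 was most like Nrbf2 (0.988), Mmp13 like Ufc1 (0.983), and Mmp2 like Tln1 (0.995), which encodes talin. These values rest on 8 points that share libraries and scaling, and are descriptions only.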

How the data were processed

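The authors deposited 1 table of raw read-pair counts per gene for 24 libraries, made per the file headers with featureCounts 2.0.0 in paired mode over the exons of Ensembl release 107 (GRCm39), without strand and without pairs that mapped to several places or genes. The aligner is not given consistently: the submitters' processing notes name Bowtie and the methods name STAR. Symbols were matched by identifier to Ensembl release 116, which named 56017 of 56748 genes.

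Levels are CPM scaled by TMM over the 24 libraries, and FPKM divides them by the exon length in the table. Tests used edgeR 4.0.16 in R 4.3.3 (quasi-likelihood, TMM, filterByExpr, Benjamini-Hochberg over all genes tested) on the libraries of each comparison, with the 3 groups of a side in 1 fit and the 4 groups of an interaction in 1 fit. Calls needed an adjusted p below 0.05 and a log2 fold change beyond 0.5 in size, and interactions the adjusted p alone. SEs are the log2 fold change divided by the root of F, and intervals are 95%. The floor of 3 counts, between 0.0764 and 0.146 CPM, and the counts cover counting error only. Same-numbered libraries were checked for pairing, and their deviations correlated at no more than 0.0863 in any pair, so the numbers were not taken to pair them. No 2 libraries of a group agreed within sampling noise.

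Named genes were the 10 members, other family genes that were called, up to 4 called genes of 3 pathway lists by size of change, and the genes of highest likeness. The members, lists and tests were chosen with earlier results of these data known. The alternatives were RLE normalization, DESeq2 1.42.0, other filters, 1 fit of all libraries, the replicate block, scaling without the most abundant genes and each library left out. The scripts were tested on simulated data. A gene of the pathway lists that met the naming rule is not reported here.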

Additional observations from a re-analysis of the deposited data

Results flagged for a closer look

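In 24 family results the difference between the buccal and the lingual part itself changed, by an interaction test in edgeR (adjusted p under 0.05, no limit on the fold). Between the stages these were 9 of 10 members and 3 of 7 other family genes tested, where 32.5% of all genes passed. With culture they were 9 of 10 members and 3 of 9 other family genes tested, where 35.5% of all genes passed. Values are log2 of the later buccal-to-lingual ratio over that of the cap stage, so a negative value is a shift towards the lingual part.

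Between the stages, the bell value set against the cap value, the shift was towards the buccal part for Mmp13 (3.26, SE 0.31), Mmp9 (1.201), Mmp17 (0.71) and Timp1 (0.30, which passed in 4 of 12 fits with a library left out). It was towards the lingual part for Mmp16 (-1.004), Mmp19 (-0.89), Mmp11 (-0.68), Timp3 (-0.64), Mmp23 (-0.62), Mmp2 (-0.44), Mmp14 (-0.40) and Timp2 (-0.22).

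With culture, the shift was towards the buccal part for Mmp13 (1.10), Mmp9 (0.38) and Mmp17 (0.32, in 4 of 12 fits). It was towards the lingual part for Mmp11 (-1.04), Mmp19 (-0.97), Mmp23 (-0.81), Mmp16 (-0.76), Timp1 (-0.50), Mmp2 (-0.46), Timp2 (-0.29), Mmp14 (-0.21) and Timp3 (-0.18, in 2 of 12 fits). Both sets share the cap-stage libraries. Of the macrophage markers, 10 of 10 also shifted towards the lingual part in both tests (18% of all genes between the stages, 19.5% with culture). Of the osteoblast markers, 6 of 7 tested shifted towards the buccal part between the stages (14.5% of all genes). With culture, 6 of 8 osteoblast markers shifted towards the lingual part (19.5% of all genes) and 1 towards the buccal part (16%). With all 24 libraries in 1 fit, Mmp2, Mmp16, Mmp23, Timp1 and Timp2 did not pass between the stages, nor Mmp9, Mmp14, Mmp16, Mmp17 and Timp3 with culture. The part of these cell types in the shifts of the family was not tested.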

How the results depend on the processing

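Of 2923 fold changes of single family genes under other settings, 2769 kept direction and side of the threshold, 87 lost the call, 34 gained it and 33 changed sign, 0 of them in a fold change with an edgeR adjusted p under 0.05 in the reported fit. The number of members called fell from 4 to 2 between the cap-stage parts with at least 10 counts in every library, a filter that removes Mmp13 and Mmp3, and from 9 to 5 in each interaction with all 24 libraries in 1 fit. It rose from 5 to 8 in the undivided mesenchyme without Cap-W replicate 1 and Bell-W replicate 3, chosen after seeing the data (4443 genes called in all, against 3037). The 24-library fit called 5887 genes there, 2581 for side by stage (7137 as reported) and 4048 for side by culture (7842 as reported); leaving out Cap-W replicate 3 or Bell-W replicate 2 gave 1758 and 1832 genes in the undivided mesenchyme. The cause was not tested. With the 7 member proteases alone, the ratio of inhibitors to proteases was 0.432 in Cap-L, 0.413 in Cap-B, 0.461 in Bell-L and 0.458 in Bell-B.

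Signs changed for Timp3 between the cap-stage parts (-0.024 without a filter and -0.024 in the 24-library fit), Mmp25 there (0.0043 with the 10-count filter), Mmp15 in the lingual part from cap to bell (-0.013 without a filter, -0.0043 in the 24-library fit), and in the undivided mesenchyme without both libraries Mmp17 (-0.24) and Mmp15 (-0.065). With single libraries left out, log2 fold changes ranged in the undivided mesenchyme from -0.066 to 0.049 for Mmp11, -0.18 to 0.26 for Mmp17 and -0.039 to 0.26 for Mmp15; between the cap-stage parts from -0.032 to 0.11 for Mmp16, -0.084 to 0.063 for Timp3 and -0.087 to 0.11 for Mmp25; between the bell-stage parts from -0.059 to 0.057 for Mmp15; and between the cultured parts from -0.011 to 0.035 for Mmp2 and -0.041 to 0.015 for Mmp14. From cap to bell they ranged from -0.014 to 0.12 for lingual Timp3, -0.069 to 0.056 for lingual Mmp15 and -0.019 to 0.089 for buccal Timp1. For the buccal cultured over the bell-stage part they ranged from -0.091 to 0.025 for Mmp23 and -0.0010 to 0.092 for Mmp17, and for the interactions from -0.20 to 0.64 for Mmp3 with stage and -0.086 to 0.035 for Mmp15 with culture.

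With the replicate number as a block, 6 members were called in the undivided mesenchyme (5 without it) and 8 for side by stage (9 without it), and the other counts of members were equal. The numbers did not pair the libraries, so the block stands only as a setting.

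Counts under about 10 per library limit Mmp13 in Cap-B, Mmp3 in Cap-W, Cap-L and Bell-L, and most of the other family genes. The spread of the undivided libraries limits Mmp2 and Mmp16 in the undivided mesenchyme.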

Other observations

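Bell-W replicate 3 held far more reads of Mmp24 and Timp4 than the other libraries of its group. Mmp24, a membrane-anchored protease known from neurons, had 94 counts in Bell-W replicate 3 and Timp4 had 71, against at most 8 in the other Bell-W libraries. In the same library the epithelial markers summed to 1903 CPM.

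Mmp19 and Mmp23 had stage changes in both parts or in 1 of them. Mmp19 rose 2.05 ± 0.16 (log2, SE) from cap to bell on the lingual side and 1.17 ± 0.16 on the buccal side, and Mmp23 rose 1.06 ± 0.12 in the lingual part. Mmp17, a membrane-anchored protease, rose 0.54 ± 0.08 from cap to bell and 0.58 ± 0.07 with culture in the buccal part (edgeR adjusted p = 3.34e-07 and 3.2e-08).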
